A study of Homo sapiens with 15 samples.

Results

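The 38 genes examined here encode parts of the centromere and kinetochore, the spindle assembly checkpoint and the chromosomal passenger complex. They were taken by their symbols from a list chosen without using measured values in its rule, and all 38 had a row among the 17272 genes of the LNCaP expression table. LNCaP is a human prostate cancer cell line whose growth depends on androgen. The cells were kept for 2 days in charcoal-stripped serum and then received 1 nM R1881, a synthetic androgen, with DMSO (10 libraries) or 1 nM R1881 with 2 µM enzalutamide, a drug that blocks the androgen receptor (5 libraries), for 22 h. Every library therefore came from a single cell line under R1881, and no library without androgen was compared. Whether the libraries of a treatment came from separate cultures is not stated in the labels, and the methods call them biological replicates, so the p-values measure the spread between these libraries. By their descriptions, libraries 51 to 55 and 71 to 75 received R1881 alone, while 81 to 85 received both agents. The sources used here do not give the meaning of these numbers. As each series of numbers holds 1 treatment, the series and the treatment cannot be told apart.

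The kinetochore is the protein assembly that joins a chromosome to the spindle. It is built on nucleosomes that carry CENPA, a centromere-specific form of histone H3, which hold an inner layer (the constitutive centromere-associated network, CCAN). An outer, microtubule-binding layer is added to it for mitosis. Unattached kinetochores recruit checkpoint proteins that hold the cell in metaphase, and the chromosomal passenger complex releases faulty attachments. Many of these genes are transcribed mainly in late S phase, G2 and mitosis, and their RNA is scarce in resting cells.

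Polyadenylated RNA gave between 15830745 and 25416052 reads on genes per library. Levels are the deposited CPM, reads on a gene scaled to a common library size, and fold changes are differences of log2(CPM + 0.5), so that the change of a gene with few reads is understated. The androgen-induced genes KLK3, KLK2, TMPRSS2 and FKBP5 were lower with enzalutamide by between -4.99 and -3.55 on the log2 scale, without overlap between treatments, and all 7 markers of LNCaP cells had values. Of 10 markers of immune, endothelial, stromal and basal cells, 6 had no row in the table. The other 4 (VWF, COL1A1, COL3A1 and KRT14) summed to between 9.84 and 14.4 CPM with R1881 and to between 22.6 and 28.7 CPM with enzalutamide, and their part in the results below was not tested. They did not move alike, since COL3A1 was 1.84 CPM with R1881 and 11.96 CPM with enzalutamide while KRT14 was 1.02 CPM and 0.10 CPM.

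Of the 38 genes, 35 were lower and 1 was higher with R1881 + enzalutamide than with R1881 at an adjusted p under 0.05 (limma with Benjamini-Hochberg adjustment over the 17046 genes tested). Over all genes tested, 62.5% were called, 32.7% lower and 29.8% higher. The median difference was -0.82 on the log2 scale over the 38 genes and -0.01 over all genes. Setting all library totals equal turned the balance of calls over all genes from 5577 lower and 5083 higher to 4288 lower and 6629 higher, and left 33 of the 38 genes lower and 2 higher. In 31 of the 38 genes the highest enzalutamide library was below the lowest R1881 library, a pattern found in 20.1% of all genes. A decrease of at least 2-fold was called in 9 genes (CENPN, HJURP, CENPU, SPC25, ZWINT, SKA1, CENPI, TTK and CDCA8), against 4.19% of all genes. The decrease was thus shared by nearly the whole list but was unequal within it, from -3.21 for CENPN to 0.21 for NSL1. All 38 genes passed the filter on low values, and the fewest reads in any library were 59, for CENPM.

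**Figure D1:**
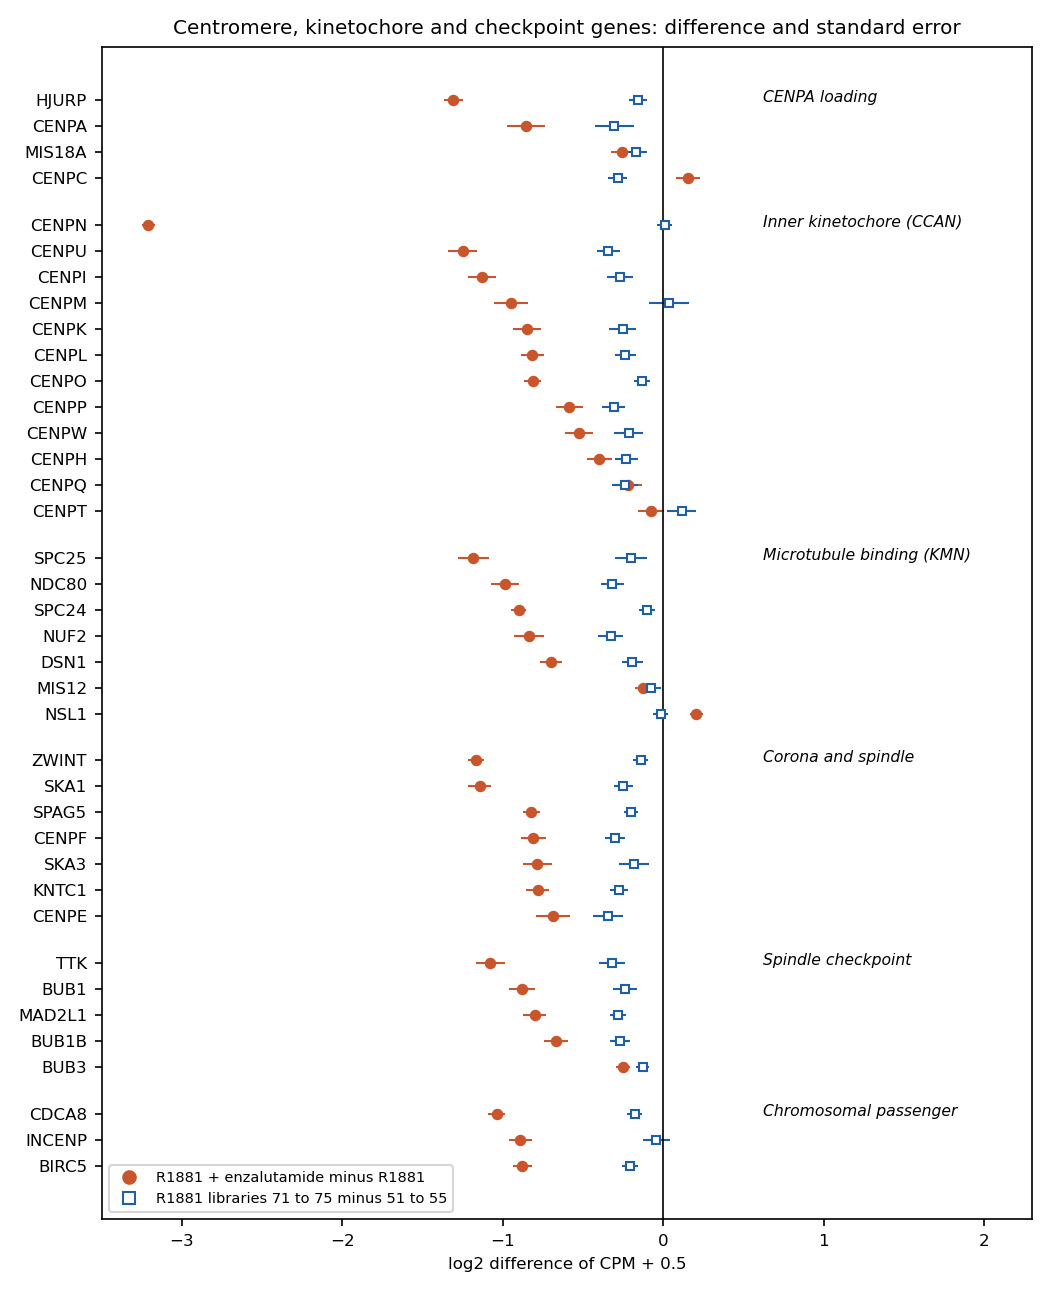
Log2 difference with its standard error for each of the 38 genes, grouped by role, for R1881 + enzalutamide minus R1881 (filled circles) and, within R1881, libraries 71 to 75 minus 51 to 55 (open squares). CENPN stands apart at -3.21, most genes lie between -1.31 and -0.40, and CENPC and NSL1 lie right of 0.

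Proliferation markers outside the list moved the same way. MKI67, the Ki-67 antigen, was 108.0 ± 12.5 CPM (SD, n = 10) in the R1881 libraries and 45.004 ± 3.02 CPM (SD, n = 5) in the enzalutamide libraries, with a log2 fold change of -1.25 (adjusted p = 3.27e-12, limma), and all 6 genes of that list (MKI67, TOP2A, PCNA, TYMS, CCNA2 and CCNB1) were lower, with a median of -0.92. The part of these markers' decrease in that of the 38 genes was not tested. In bulk RNA, fewer dividing cells and less RNA of these genes per dividing cell cannot be told apart.

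The promoters of the genes were compared for sequence elements known from cell cycle genes. RefSeq promoters (GRCh38.p14, 250 bases before to 50 after the start site) were found for 30 of the 38 genes, and not for MIS18A, CENPH, CENPL, CENPM, KNTC1, BUB3, TTK and BIRC5. The cell cycle genes homology region (CHR, searched on both strands as TTTGAA or TTCGAA) is bound by the DREAM and MuvB complexes at genes of G2 and mitosis, the CCAAT box by NF-Y, and the E2F element (TTTCCCGC, TTTCGCGC, TTTGCCGC or TTTGGCGC) by E2F factors. A CHR was present in 19 of the 30 promoters (63.3%), beside 10.8% of the 9856 promoters of all tested genes and 16.6% of the 27305 promoters in the reference table. It lay within 50 bases of the start site in 17 of 30 (56.7%), beside 3.03% of the promoters of tested genes. CCAAT was present in 17 promoters (56.7%, beside 37.3%), CHR and CCAAT together in 12 (40%, beside 4.73%), and an E2F element in 3 (10%, beside 5.4%). All 17 genes with a CHR within 50 bases of the start site were called lower with enzalutamide, with differences from -3.21 to -0.53. Of the 13 without it 10 were called lower, with differences from -1.31 to 0.21. Among all 38 genes 35 were called lower, and among all genes tested 32.7%. The share called lower was not taken for the other tested genes with a CHR there. The limit of 50 bases was not planned beforehand. Of the 13, HJURP (-1.31) and CENPC (0.15, not called) hold a CHR further upstream. Over the whole window the median difference was -0.86 for genes with a CHR and -0.69 for genes without. These matches describe the letters of the window and do not show binding. The 120 bases before the start site are given for 4 genes with a decrease and a CHR close to the start (ZWINT, INCENP, CENPA and BUB1B), and for CENPC and CENPT, which were not lower. Capitals mark CHR, CCAAT and E2F matches on either strand, and the last bases of some stretches lie in first exons that GENCODE v44 starts further upstream.
ZWINT, chr10:56361260-56361379, minus strand: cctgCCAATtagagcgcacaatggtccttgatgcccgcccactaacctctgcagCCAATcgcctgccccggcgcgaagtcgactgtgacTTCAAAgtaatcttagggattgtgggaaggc
INCENP, chr11:62123891-62124010, plus strand: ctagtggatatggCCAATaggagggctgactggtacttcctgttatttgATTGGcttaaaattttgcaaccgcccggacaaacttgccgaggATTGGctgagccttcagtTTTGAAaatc
CENPA, chr2:26785936-26786055, plus strand: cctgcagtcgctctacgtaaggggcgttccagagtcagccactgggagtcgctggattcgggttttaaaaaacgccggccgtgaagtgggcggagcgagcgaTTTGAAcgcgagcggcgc
BUB1B, chr15:40160949-40161068, plus strand: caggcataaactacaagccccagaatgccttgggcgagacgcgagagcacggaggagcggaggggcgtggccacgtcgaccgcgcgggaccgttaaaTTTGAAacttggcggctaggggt
CENPC, chr4:67545504-67545623, minus strand: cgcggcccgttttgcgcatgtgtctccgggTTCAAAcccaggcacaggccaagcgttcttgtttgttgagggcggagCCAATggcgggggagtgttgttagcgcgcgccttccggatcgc
CENPT, chr16:67847694-67847813, minus strand: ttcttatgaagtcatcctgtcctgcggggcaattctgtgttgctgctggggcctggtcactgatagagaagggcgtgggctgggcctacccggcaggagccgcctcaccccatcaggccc
The CHR lies 31, 18 and 23 bases before the start site in ZWINT, CENPA and BUB1B and 90 bases before it in CENPC, while CENPT holds none of the 3 elements. NSL1 holds none either, and neither do CENPI (-1.13), DSN1 (-0.70), CENPE (-0.69) and CENPP (-0.59), which were lower. RefSeq start sites need not match the gene start in GENCODE v44. The 120 bases before that of CENPI (chrX:101100938-101101057) lie inside the gene, which begins at 101098188. Those of CENPP (chr9:92325348-92325467) lie ahead of the gene start at 92325953. CENPI and CENPP are counted among the genes without a CHR. Among the genes with a CHR close to the start, the 120 bases of CENPA, CENPN, CENPO, NUF2 and SPC25 also lie inside the gene. CENPA begins at 26764289 and NUF2 at 163266576, both on the plus strand, and SPC25 at 168913371 on the minus strand. For all these genes, presence or absence of a CHR describes these windows and not necessarily the promoter in use. In CENPN, the gene with the largest decrease, the CHR starts 4 bases after the start site. Since CENPN changed most, the 30 windows were also searched, after its values were seen, for the androgen receptor half-site AGAACA. The window of CENPN did not hold it. It was present in 2 of the 30 (6.67%), those of CENPF and CENPI, beside 8.64% of the promoters of tested genes. That search says only whether these letters are in the windows.

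**Figure D2:**
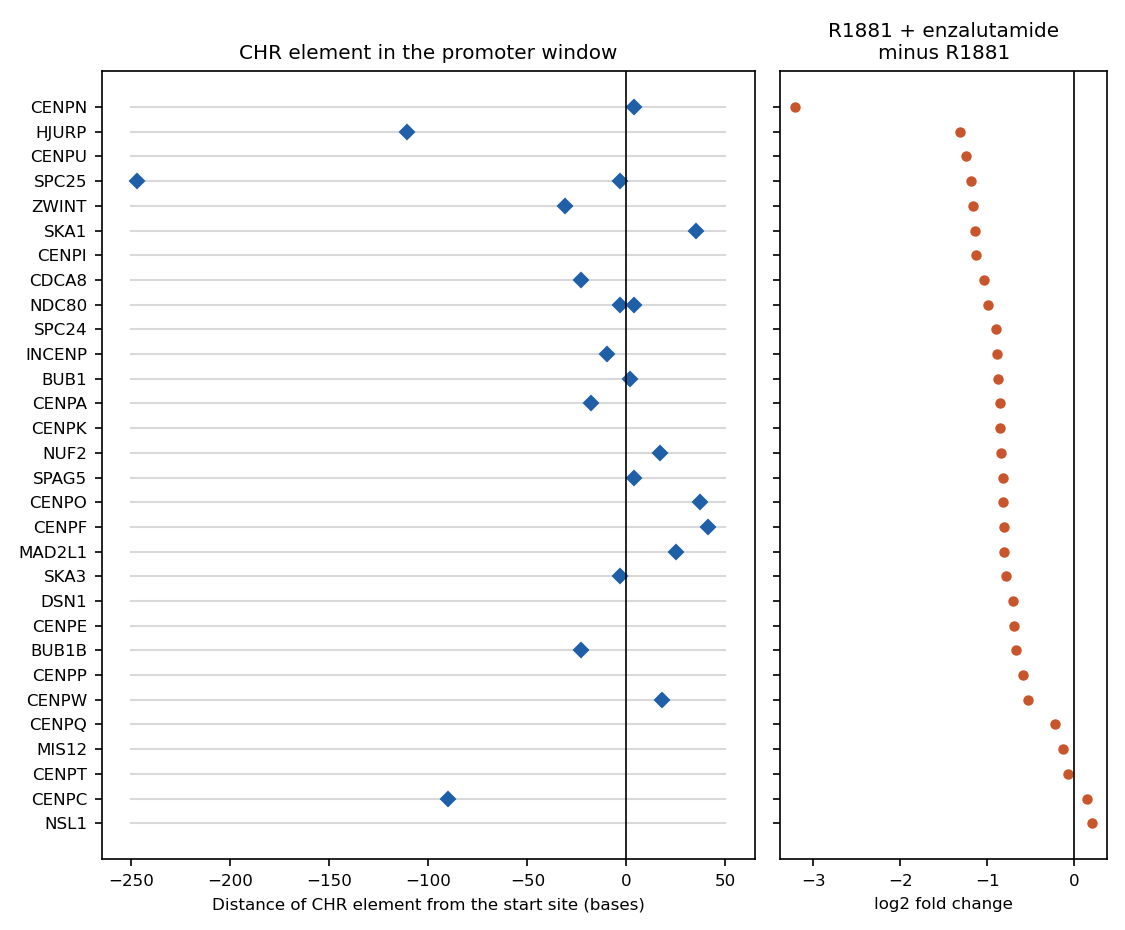
Position of CHR elements (diamonds) in bases from the start site in the 30 promoters (left), with genes ordered by their log2 fold change with enzalutamide (right). Of the 19 promoters with an element, 17 hold one within 50 bases of the start site, and the 11 without one range from CENPU at -1.25 to NSL1 at 0.21.

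The first role examined was the loading of CENPA. HJURP, the chaperone that deposits CENPA at centromeres, ranged from 26.4 to 32.9 CPM in the R1881 libraries with a median of 29.2, and was 12.01, 10.3, 12.96, 11.4 and 11.7 CPM in R1881 + enzalutamide replicates 1 to 5. Every R1881 library was thus at least 2-fold above every enzalutamide library (log2 fold change -1.31, standard error 0.059, adjusted p = 4.32e-14, limma). CENPA itself was 6.80 ± 1.29 CPM (SD, n = 10) in the R1881 libraries and 3.49 ± 0.398 CPM (SD, n = 5) in the enzalutamide libraries, with a log2 fold change of -0.86. An exon of SLC35F6 overlaps CENPA on the same strand, so that some of its counts could be of that gene, which was 31.7 ± 2.03 CPM with R1881 and 34.8 ± 2.77 CPM with enzalutamide. MIS18A, a subunit of the Mis18 complex that prepares centromeres for new CENPA, fell by 0.26 on the log2 scale, from 15.9 ± 1.37 CPM to 13.2 ± 0.986 CPM, and its groups overlapped. CENPC, which binds CENPA nucleosomes and links them to the outer kinetochore, was not lower. It ranged from 14.5 to 19.8 CPM with a median of 16.8 with R1881, and was 18.4, 16.6, 19.6, 19.8 and 18.7 CPM with enzalutamide. The groups overlapped and the difference of 0.15 did not pass the threshold (adjusted p = 0.081, limma). It passed against R1881 libraries 71 to 75 alone (0.30, adjusted p = 0.000933, limma), while against libraries 51 to 55 alone it was 0.01 (adjusted p = 0.885, limma).

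Of the 12 CCAN subunits 11 were lower, and CENPN far more than the others. CENPN, which reads the CENPA nucleosome together with CENPC, ranged from 234.5 to 257.5 CPM with R1881 with a median of 249.4, and was 25.7, 23.2, 28.1, 27.2 and 26.9 CPM with enzalutamide. Its median decreased by 89.2%, with no overlap and little spread in either group (log2 fold change -3.21, standard error 0.041, adjusted p = 3.34e-23, limma), and it stood at place 48 from the lowest among the 17046 genes. The androgen-induced KLK3, the gene of prostate-specific antigen, had a log2 fold change of -3.55 in the same fit. CENPN lies on the plus strand of chromosome 16 from 81006552 to 81033114 (GRCh38, GENCODE v44), where its exons overlap those of CMC2 and 3 further genes on the other strand and those of 1 gene without a symbol (ENSG00000261061) on the same strand. CMC2, which acts in the assembly of cytochrome c oxidase, was also lower, at 91.9 ± 4.92 CPM with R1881 and 30.8 ± 1.71 CPM with enzalutamide, a log2 fold change of -1.56 (adjusted p = 1.44e-17, limma). The libraries were made with a kit that keeps the strand, but the sources used here do not say whether the counting used it.

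CENPL, the partner that forms a dimer with CENPN, ranged from 16.7 to 22.998 CPM with a median of 19.5 with R1881, and was 11.5, 10.1, 10.1, 11.5 and 11.8 CPM with enzalutamide. Its groups did not overlap, and its log2 fold change was -0.82. CENPU, a subunit of the CENP-O/P/Q/U/R group that helps to recruit the kinase PLK1, ranged from 47.9 to 71.4 CPM with a median of 59.4, and was 26.1, 19.8, 26.7, 24.5 and 25.4 CPM with enzalutamide. It was the second lowest CCAN gene (log2 fold change -1.25, standard error 0.091, adjusted p = 1.53e-10, limma). CENPQ, of the same group, was 12.1, 10.4, 12.9, 13.8 and 12.9 CPM with enzalutamide, within or just below its R1881 range of 11.7 to 17.2 CPM (median 14.4). Its decrease of -0.22 (adjusted p = 0.0287, limma) passed the threshold but not against R1881 libraries 71 to 75 alone (-0.10, adjusted p = 0.327, limma), nor without R1881 + enzalutamide replicate 1 (adjusted p = 0.0579, limma) or replicate 2 (adjusted p = 0.111, limma). CENPT, which together with CENPW binds centromeric DNA and recruits the NDC80 complex, ranged from 23.9 to 35.7 CPM with a median of 26.5, and was 23.7, 30.1, 25.5, 25.6 and 24.98 CPM with enzalutamide. The groups overlapped almost wholly (-0.07, standard error 0.080, adjusted p = 0.435, limma). CENPI, of the CENP-H/I/K/M group, was between 13.3 and 19.4 CPM with R1881 and between 6.19 and 8.62 CPM with enzalutamide (-1.13, adjusted p = 4.70e-10, limma). Of the same group CENPM was lower by -0.95, CENPK by -0.85 and CENPH by -0.40, so that 3 of the 4 subunits stood clear of overlap and CENPH, at 14.9 to 20.5 CPM against 11.2 to 15.02 CPM, did not. CENPO was lower by -0.81, CENPP by -0.59 and CENPW, the DNA-binding partner of CENPT, by -0.53, each without overlap. The exons of CENPP overlap on the other strand those of IPPK, an inositol phosphate kinase, which had a log2 fold change of -0.63.

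**Figure D3:**
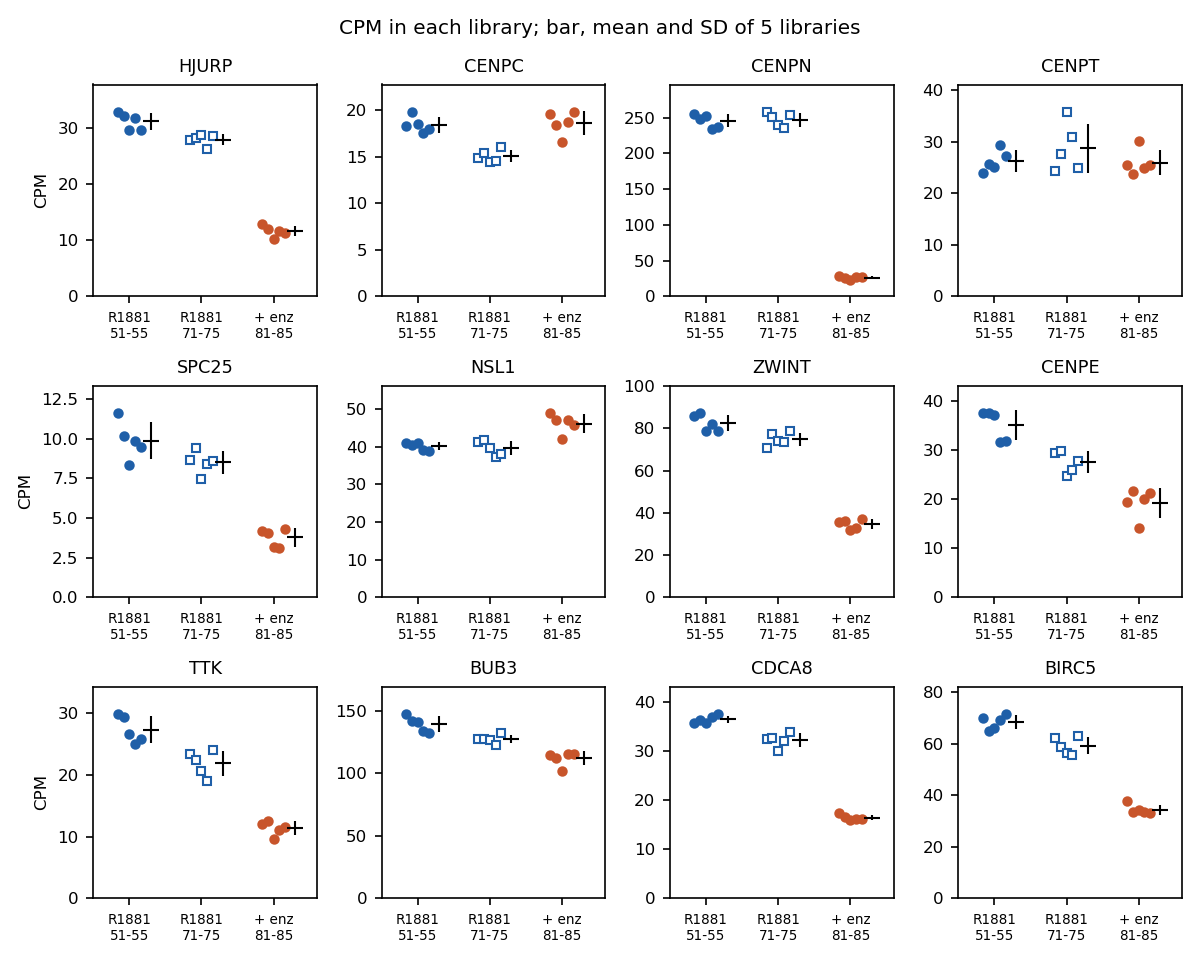
CPM in each library for the gene with the lowest and the gene with the highest log2 fold change of each role, for R1881 libraries 51 to 55 (filled blue), R1881 libraries 71 to 75 (open blue) and R1881 + enzalutamide libraries 81 to 85 (orange), with mean and SD of the 5 libraries. CENPN is between 234.5 and 257.5 CPM with R1881 and at most 28.1 CPM with enzalutamide, while the groups of CENPC and CENPT overlap.

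In the outer kinetochore the NDC80 complex, which grips the microtubule, and the MIS12 complex, which anchors it to the inner layer, differed. All 4 NDC80 complex genes were lower without overlap, SPC25 by -1.18, NDC80 by -0.99, SPC24 by -0.90 and NUF2 by -0.84. SPC25 ranged from 7.43 to 11.6 CPM with a median of 9.04 with R1881, and was 4.05, 3.16, 4.19, 4.31 and 3.14 CPM with enzalutamide (standard error 0.095, adjusted p = 7.12e-10, limma). Of the MIS12 complex, DSN1 ranged from 25.6 to 34.1 CPM with a median of 30.5, and was 19.3, 15.7, 19.8, 19.5 and 17.5 CPM with enzalutamide, a decrease of -0.70 without overlap. NSL1 was the 1 gene of the list called higher. It ranged from 37.3 to 41.8 CPM with a median of 40.0 with R1881, and was 47.1, 41.9, 48.9, 45.7 and 47.0 CPM with enzalutamide, so that the lowest enzalutamide library lay just above the highest R1881 library (0.21, standard error 0.041, adjusted p = 0.000184, limma). MIS12 was between 46.9 and 58.2 CPM with R1881 and between 44.7 and 51.3 CPM with enzalutamide. Its groups overlapped, and its difference of -0.13 (adjusted p = 0.0415, limma) was past the threshold in 11 of 29 alternative settings and missed it in 18, among them each other scaling tried, the count tests, and fits without any 1 of R1881 replicates 1, 3, 5, 7, 8, 9 and 10 or enzalutamide replicates 2, 3 and 5.

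All 7 genes of the fibrous corona and spindle attachment were lower, without overlap between the groups. ZWINT, which ties the RZZ complex to the outer kinetochore, ranged from 70.7 to 87.2 CPM with a median of 78.7 with R1881, and was 36.1, 32.0, 35.6, 37.1 and 32.9 CPM with enzalutamide (log2 fold change -1.17, standard error 0.050, adjusted p = 1.94e-14, limma). CENPE, the kinesin that carries chromosomes to the metaphase plate, changed least of the 7. It ranged from 24.8 to 37.6 CPM with a median of 30.8, and was 21.7, 14.1, 19.4, 21.3 and 19.96 CPM with enzalutamide (log2 fold change -0.69, standard error 0.105, adjusted p = 8.53e-06, limma). SKA1, of the SKA complex that couples kinetochores to shrinking microtubules, was between 11.5 and 14.97 CPM with R1881 and between 5.31 and 5.97 CPM with enzalutamide (-1.14, adjusted p = 9.73e-12, limma). SKA3 of the same complex was lower by -0.78. SPAG5 (astrin, a spindle protein), CENPF, a large microtubule-binding protein of the corona, and KNTC1, a subunit of the RZZ complex, lay between -0.82 and -0.78.

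Of the 5 spindle checkpoint genes, all were lower without overlap, and BUB3 changed least. TTK (MPS1), the kinase that starts checkpoint signalling, ranged from 18.9 to 29.8 CPM with a median of 24.5 with R1881, and was 12.6, 9.54, 11.96, 11.5 and 11.0 CPM with enzalutamide (log2 fold change -1.08, standard error 0.092, adjusted p = 1.84e-09, limma). The kinase BUB1 was lower by -0.88, and MAD2L1 and BUB1B (BUBR1), which enter the mitotic checkpoint complex, were lower by -0.80 and -0.67. BUB3, the adaptor that brings BUB1 and BUBR1 to the kinetochore, ranged from 122.7 to 147.3 CPM with a median of 132.2, and was 112.6, 101.9, 114.9, 115.4 and 115.7 CPM with enzalutamide. Its decrease of -0.25 (standard error 0.044, adjusted p = 5.06e-05, limma) was small, though the highest enzalutamide library (115.7 CPM) lay below the lowest R1881 library (122.7 CPM).

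The 3 genes of the chromosomal passenger complex measured here were all lower. CDCA8 (borealin) ranged from 30.0 to 37.5 CPM with a median of 34.7 with R1881, and was 16.6, 15.9, 17.3, 16.2 and 16.1 CPM with enzalutamide (log2 fold change -1.04, standard error 0.053, adjusted p = 3.44e-13, limma). BIRC5 (survivin), which targets the complex to centromeric chromatin, ranged from 55.7 to 71.4 CPM with a median of 63.9, and was 33.5, 34.1, 37.8, 33.1 and 33.4 CPM with enzalutamide (log2 fold change -0.88, standard error 0.058, adjusted p = 3.10e-11, limma). INCENP, the scaffold of the complex, was lower by -0.89. In each of these genes the R1881 and enzalutamide libraries did not overlap.

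Because partners of a complex differed in their decrease, the log2 ratio of 15 partner pairs was computed within each library, where the scaling between libraries cancels but for the pseudocount. The ratio differed between treatments in 14 of 15 pairs (exact permutation test, two-sided, Benjamini-Hochberg over the pairs, smallest possible p = 0.000333), and the groups did not overlap in 9. Other gene pairs were not compared, and since 62.5% of all genes were called between treatments, the count of pairs is a description of these pairs only. The log2 ratio of CENPL to CENPN was between -3.88 and -3.43 with R1881 and was -1.13, -1.15, -1.43, -1.20 and -1.16 with enzalutamide, a difference of 2.39 (adjusted p = 0.000624, exact permutation test). For CENPQ to CENPU the ratio rose from -1.98 ± 0.112 (SD, n = 10) to -0.95 ± 0.108 (SD, n = 5), a difference of 1.03, and for NSL1 to DSN1 from 0.40 ± 0.119 to 1.31 ± 0.084, a difference of 0.91 (adjusted p = 0.000624 for each, exact permutation test). BUB1 and BUB1B decreased relative to BUB3 by -0.63 and -0.42, and MIS12 rose relative to DSN1 by 0.57 (adjusted p = 0.000624 for each, exact permutation test). CENPA rose relative to its chaperone HJURP by 0.45 and CENPH relative to CENPK by 0.45, both without overlap, while SPC24 to SPC25 (0.28), CENPO to CENPP (-0.23) and SKA1 to SKA3 (-0.36) differed with overlap. SPC24 to SPC25 did not pass the threshold against R1881 libraries 71 to 75 alone (adjusted p = 0.0916, exact permutation test). CENPT to CENPW differed by 0.45 (adjusted p = 0.0181, exact permutation test), but not past the threshold against R1881 libraries 71 to 75 alone (adjusted p = 0.196, exact permutation test). The pairs with the smallest differences were INCENP to CDCA8 (0.15, adjusted p = 0.138, exact permutation test) and NDC80 to NUF2 (-0.15, adjusted p = 0.0432, exact permutation test), the latter past the threshold in 7 of 19 alternative settings only. BIRC5 to CDCA8 differed by 0.16, small but without overlap (adjusted p = 0.000624, exact permutation test).

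**Figure D4:**
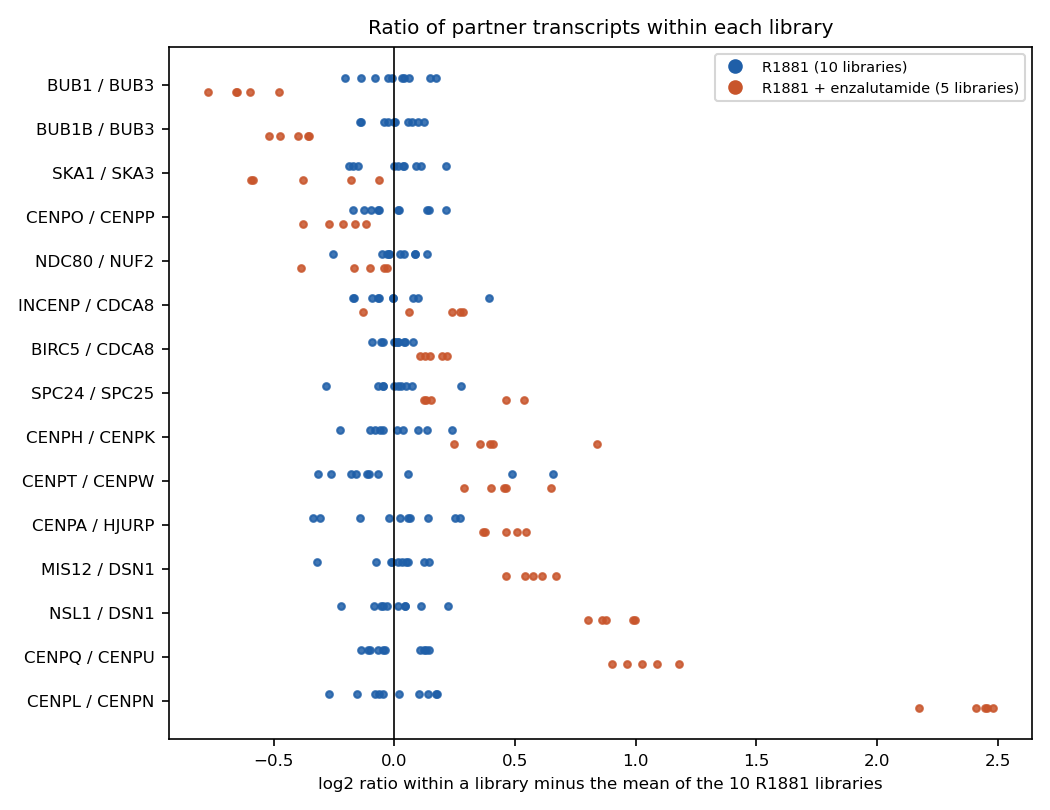
Log2 ratio of partner transcripts in each library, minus the mean of the 10 R1881 libraries for that pair (R1881 blue, R1881 + enzalutamide orange). The enzalutamide libraries are shifted by 2.39 for CENPL / CENPN and by 1.03 for CENPQ / CENPU, and overlap the R1881 libraries in 6 of the 15 pairs.

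To compare levels between genes, CPM was divided by the length of the canonical transcript (GENCODE v44), which assumes that this transcript is the one in use. With R1881 the level of CENPN, 62.7 ± 2.27 CPM per kb (SD, n = 10), was the highest of the 38 genes, followed by ZWINT at 42.4 ± 2.83. BIRC5, CENPU, MIS12 and SPAG5 followed between 24.8 and 20.1 CPM per kb, each within 1 SD of the next. With enzalutamide CENPN was at place 16 with 6.67 ± 0.485 CPM per kb (SD, n = 5), and MIS12 at 19.4 ± 1.06 and ZWINT at 18.7 ± 1.19, within 1 SD of each other, were highest. CENPP was lowest in both treatments, at 1.04 ± 0.136 and 0.672 ± 0.044 CPM per kb. The canonical transcripts of NSL1 (13.1 kb) and BUB3 (7.70 kb) are long, which lowers their level per kb if shorter forms are present.

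**Figure D5:**
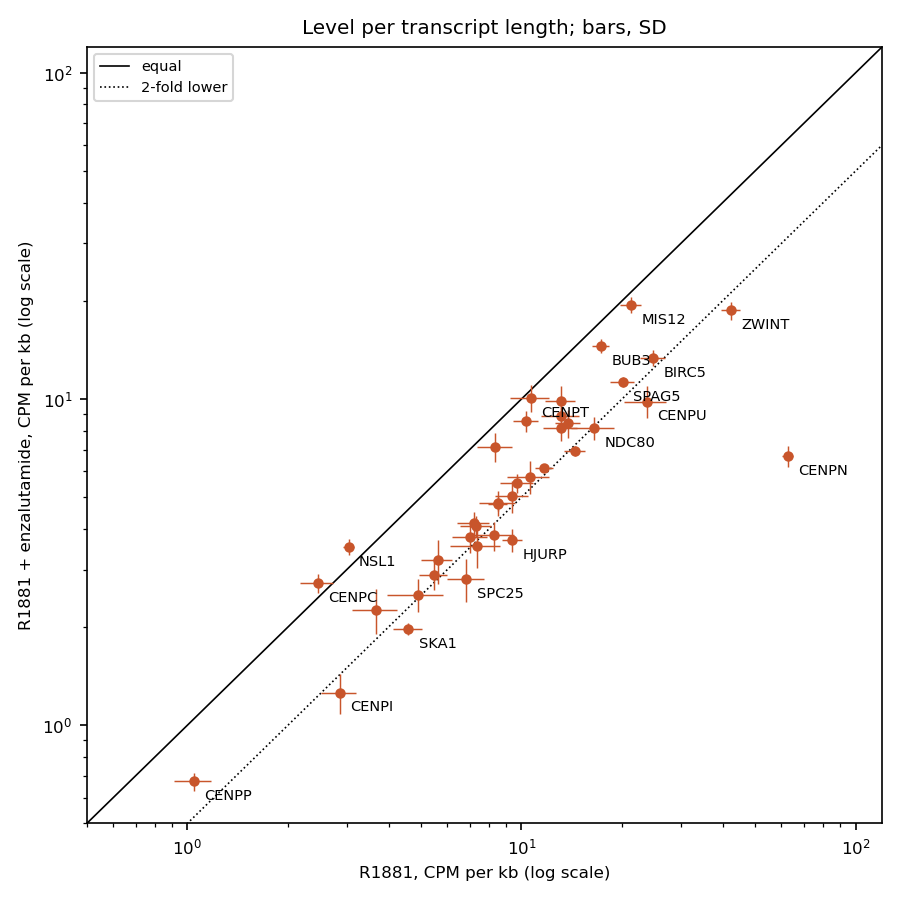
Mean CPM per kb of canonical transcript with R1881 (x axis) and with R1881 + enzalutamide (y axis), both on log scales, with SD as bars. Most of the 38 genes lie near the line of a 2-fold decrease, MIS12, CENPT, CENPC and NSL1 lie near the line of equal levels, and CENPN lies far below both.

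The 38 genes also varied within the R1881 treatment. Between R1881 libraries 71 to 75 and 51 to 55, 15 of the 38 genes were lower and none was higher at an adjusted p under 0.05 (limma, all 15 libraries in the fit), where 2.76% of all genes were called lower and 0.945% higher. The difference was below 0 in 35 of the 38 genes and in 52.8% of all genes, with a median of -0.22 over the 38 genes. MAD2L1, the 1 gene with an adjusted p under 0.01, was 55.8 ± 2.96 CPM in libraries 51 to 55 and 45.9 ± 1.48 CPM in libraries 71 to 75 (SD, n = 5 each), a log2 difference of -0.28 (adjusted p = 0.00962, limma). CENPN was 245.4 ± 9.18 CPM and 247.0 ± 9.66 CPM, a difference of 0.01 (adjusted p = 0.915, limma). Of the 6 proliferation markers 5 were lower in libraries 71 to 75, and their part in this difference was not tested. The count of 15 rested on single libraries. It was 2 without R1881 replicate 5, 6 without replicate 6, 6 without replicate 7, 2 without replicate 9 and 1 without replicate 10.

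The median deviation of the 38 genes from their R1881 mean was between 0.06 and 0.15 in libraries 51 to 55, between -0.18 and -0.05 in libraries 71 to 75, and between -0.92 and -0.72 in the R1881 + enzalutamide libraries. The gap between treatments was thus wider than that between the R1881 series. Against libraries 51 to 55 alone 35 genes were lower with a median of -0.93, and against libraries 71 to 75 alone 33 were lower with a median of -0.70. R1881 + enzalutamide replicate 2 was the lowest of its group in 23 of the 38 genes, and without it 33 genes were lower and 2 higher, with a median of -0.79.

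A further 29 genes of the same pathway that are not in the list were counted from the same fit, 6 of them under older symbols. With enzalutamide 23 were lower, 2 were higher and 4 were not called, with a median of -0.68, beside 32.7% lower and 29.8% higher among all genes. The lowest were KNSTRN (-1.60), the small kinetochore partner of astrin, ERCC6L (-1.45), the PICH helicase of anaphase bridges, and CENPX (-1.14), a histone-fold protein of the inner kinetochore and of the Fanconi pathway. KNSTRN had 60.2 ± 5.66 CPM (SD, n = 10) in the R1881 libraries and 19.5 ± 0.584 CPM (SD, n = 5) in the enzalutamide libraries (adjusted p = 1.27e-15, limma). The highest were CENPV (0.49), CLASP2 (0.34) and CLASP1, the last not called at a difference of -0.00 (adjusted p = 0.933, limma). CLASP2, which stabilises microtubules at kinetochores and at interphase sites, rose from 62.9 ± 3.19 CPM to 79.5 ± 3.93 CPM without overlap (adjusted p = 5.23e-07, limma).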

How the data were processed

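The authors deposited a normalized signal per gene, called CPM in the methods, made from featureCounts counts of reads aligned to GRCh38 by STAR. The sources used here do not give the annotation, the use of strand or the scaling rule. The methods give 10 and 5 replicates to the treatments the other way round from the labels, which were used. The columns summed to between 985580 and 1078567, and all values (100%) were whole multiples of 1 read within 0.01 reads, which gave the reads back. No 2 libraries of a treatment agreed within sampling noise (55 pairs, chi-square over its degrees of freedom from 1.64 upwards).

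Differences were tested with limma 3.58.1 in R 4.3.3 (log2(CPM + 0.5) with a trend of variance on level, genes with a mean of 0.5 CPM or more, treatment as the only term, Benjamini-Hochberg over all genes). The design assumed CPM, and the deposited signal was tested as such. As alternatives, DESeq2 1.42.0 and the quasi-likelihood test of edgeR 4.0.16 took the recovered reads. The contrast between the R1881 series used 3 groups in 1 fit. For ratios a two-sided exact permutation test of the difference of means was used. Further alternatives covered pseudocounts (0.1 and 1), filters, scalings, a replicate block, each R1881 series alone and each library left out.

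The genes and lists were chosen with earlier results of these data known. Given library by library are the lowest and highest gene of each role, genes not called, and the genes of the 3 pairs with the largest ratio difference. Of the further pathway genes the 3 lowest and 3 highest are named. The number of libraries and, at low CPM, counting error limit the precision.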

Additional observations from a re-analysis of the deposited data

Results flagged for a closer look

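Over the 38 genes and 15 ratios in each treatment, 8 sets of values had 1 library far from the others of its group, where chance gives about 5.3. In CPM these were CENPM in R1881 replicate 6 (9.59, next library 7.49), BUB3 in R1881 + enzalutamide replicate 2 (101.9, next library 112.6) and BIRC5 in R1881 + enzalutamide replicate 3 (37.8, next library 34.1). In log2 ratios they were NDC80 to NUF2 in R1881 replicate 7 (0.48, next 0.69), MIS12 to DSN1 in R1881 replicate 4 (0.49, next 0.74), INCENP to CDCA8 in R1881 replicate 6 (-0.21, next -0.50), CENPH to CENPK in R1881 + enzalutamide replicate 5 (1.37, next 0.94) and CENPL to CENPN in R1881 + enzalutamide replicate 3 (-1.43, next -1.20). No explanation for these libraries was tested.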

How the results depend on the processing

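Over 30 settings between 33 and 35 of the 38 genes were lower with enzalutamide, and the direction of each gene held except for CENPT, which was 0.01707 with all library totals set equal. The count of higher genes was 1, or 2 where CENPC was called too: with all library totals set equal, TMM factors, the edgeR test, libraries 71 to 75 alone and the replicate block on the title number, and between 1 and 2 with a library left out. Of the 29 further pathway genes 1 was higher with a mean CPM of at least 5. Of the 38 genes, 15 were lower in libraries 71 to 75 than in 51 to 55, 1 with an adjusted p under 0.01, and between 1 and 16 with a library left out. Between 12 and 15 ratios were called over 20 settings.

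Same-numbered libraries did not deviate together (correlations from -0.07 to 0.07 over 5 pairs). No pairing by the title numbers was seen, but 5 pairs are too few to exclude a weak one. With the replicate block on these numbers 33 genes were lower and 2 higher (R1881 replicates 6 to 10 share no number and do not bear on this fit), and CENPQ and MIS12 were no longer called. Libraries that share the last digit of their library number had correlations from -0.42 to 0.67 over 10 pairs, and with that digit as replicate block 35 were lower and 1 higher. Genes with few reads, such as CENPM and CENPA, had the widest standard errors (0.106 and 0.119).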
